A study of Homo sapiens with 6 samples.

Results

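The 10 genes described here are read as output of the RAS-ERK signalling cascade: the Sprouty genes SPRY2 and SPRY4, the Sprouty-related genes SPRED1 and SPRED2, PHLDA1, the ETS factors ETV1, ETV4 and ETV5, and the immediate early genes EGR1 and IER3. They were taken by symbol from the 58735 genes of the expression table, 1 row each, and 10 of 10 were found. Measurements came from RNA sequencing of 6 libraries labelled BxPC-3, an established cell line from a human pancreatic adenocarcinoma. The control group was 3 libraries of cells given the solvent DMSO, and the treated group was 3 libraries of cells given GSK3326595. This small molecule inhibits PRMT5, a methyltransferase that modifies arginine residues of proteins in a symmetric form. The labels give no dose or duration of exposure. They also do not say whether replicates were grown separately, so each p-value reflects the variation among these libraries alone, and that variation may be technical. The series is described by its submitters as a knockdown, but the library labels name the inhibitor and were followed.

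In the ERK cascade, growth factor receptors load RAS with GTP, RAS activates RAF kinases, and RAF activates MEK and then ERK, which phosphorylates transcription factors in the nucleus. Many of the genes that ERK switches on encode brakes on the same route, so their transcripts are widely used as a readout of recent pathway output. Sprouty proteins interfere with the activation of RAS and RAF below receptors, and SPRED proteins bring neurofibromin, which switches RAS off, to the membrane. ETV1, ETV4 and ETV5 form the PEA3 group of ETS transcription factors. Their genes are held down by the repressor capicua (CIC), which ERK signalling relieves. EGR1 is induced within minutes through serum response factor and its ETS partners such as ELK1, and IER3, a regulator of survival, is an immediate early gene that answers to NF-kB as well as to ERK.

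Reads assigned to genes, as recovered from the deposited values, summed to 14087260 to 15724750 per library. The number of reads sequenced is not known from these values. Values are FPKM, which divide the fragments of a gene by its length and by a scale factor of the library, so that genes can be set side by side. This division does not remove the length trend of inhibitor replicate 2 described below. Inhibitor replicate 2 stood apart from the other libraries of its group: its log2 values correlated with theirs at r = 0.904 to 0.906 across genes, whereas inhibitor replicates 1 and 3 correlated at 0.980, and 11.3% of its reads were mitochondrial against 4.703% to 6.03% elsewhere. Among protein-coding reads, genes listed at 5000 bases or more took 66.2% in this library and 55.6% to 57.02% in the other libraries. Of the epithelial markers, KRT8, KRT18 and KRT7 were abundant (101 to 451 FPKM), CDH1 and EPCAM stood below 0.5 FPKM in all libraries, and KRT19, a defining keratin of pancreatic duct, had 0 reads in all 6 libraries, where a count of 0 allows up to 3 reads in a library. These 3 levels go against the label of a pancreatic ductal carcinoma line, and the identity of the cells was not tested, so values are given for libraries labelled BxPC-3. The fibroblast markers summed to 5.09 to 5.68 FPKM under DMSO and to 10.3 to 15.5 FPKM under treatment, nearly all from COL1A1 and PDGFRB, with COL1A2 and LUM at 0 reads throughout. Immune markers summed to 0.309 FPKM at most, and endothelial markers to 1.46 FPKM at most in DMSO and 0.823 FPKM at most with the inhibitor. The part of these differences in the results below was not tested. PRMT5 itself measured 23.2, 24.6 and 26.2 FPKM in the DMSO libraries against 13.4, 12.8 and 12.1 FPKM in the treated ones.

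Promoter sequence was available for 7 of the 10 genes in the RefSeq table (GRCh38.p14), which gives 15 windows of 300 bases, each from 250 bases before an annotated start to 50 bases after it. Both strands of the 15 windows were searched for letters bound by the regulators named above. ETV4, ETV5 and IER3 had no window and were not searched. Of the windows shown, those of SPRY2 and PHLDA1 belong to feedback genes that fell, and those of ETV1 and EGR1 hold the only capicua and CArG letters found. SPRY2 has other annotated starts, whose windows matched no motif and are not shown. The windows of SPRY4 and SPRED2, which also fell, held no ETS letters and are not shown either. Each window shown is printed 5′ to 3′ on the strand of the gene, and capitals mark every match to the motifs searched. The windows lie at chr13:80341077-80341376 (SPRY2, minus strand), chr12:76031727-76032026 (PHLDA1, minus strand), chr7:13991376-13991675 (ETV1, minus strand) and chr5:138465229-138465528 (EGR1, plus strand).
SPRY2: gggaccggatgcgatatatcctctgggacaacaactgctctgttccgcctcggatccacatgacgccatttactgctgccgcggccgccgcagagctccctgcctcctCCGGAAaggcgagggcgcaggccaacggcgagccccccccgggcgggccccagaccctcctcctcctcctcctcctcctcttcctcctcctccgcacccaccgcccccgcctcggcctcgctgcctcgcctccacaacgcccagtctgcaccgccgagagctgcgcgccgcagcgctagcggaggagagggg
PHLDA1: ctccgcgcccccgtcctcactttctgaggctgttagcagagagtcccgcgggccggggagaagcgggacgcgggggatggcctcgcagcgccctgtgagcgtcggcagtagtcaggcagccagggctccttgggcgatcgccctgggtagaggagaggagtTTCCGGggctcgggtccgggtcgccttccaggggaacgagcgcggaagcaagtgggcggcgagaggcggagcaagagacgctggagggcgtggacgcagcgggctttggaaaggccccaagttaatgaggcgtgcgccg
ETV1: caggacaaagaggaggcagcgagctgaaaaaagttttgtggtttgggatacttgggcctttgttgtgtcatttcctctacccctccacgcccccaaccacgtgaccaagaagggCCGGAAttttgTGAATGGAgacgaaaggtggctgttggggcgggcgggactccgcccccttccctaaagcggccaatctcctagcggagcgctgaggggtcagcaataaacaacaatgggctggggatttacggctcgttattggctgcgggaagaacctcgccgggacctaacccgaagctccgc
EGR1: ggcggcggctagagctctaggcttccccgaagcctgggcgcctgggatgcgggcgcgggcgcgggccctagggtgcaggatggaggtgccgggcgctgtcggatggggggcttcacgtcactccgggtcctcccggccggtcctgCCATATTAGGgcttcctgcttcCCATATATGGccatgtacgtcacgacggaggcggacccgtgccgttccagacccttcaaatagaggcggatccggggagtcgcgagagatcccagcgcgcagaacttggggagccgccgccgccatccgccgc

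The capitals in SPRY2 and PHLDA1 are the ETS letters CCGGAA, 142 and 89 bases before the start, on the opposite strand in PHLDA1. This hexamer was found in windows of 3 of the 7 genes (SPRY2, PHLDA1 and ETV1), against 5487 of all 27305 genes in the table. It was in 5 of the 15 windows of the 7 genes, against 17.2% of all 35116 windows. In ETV1 the first capitals are the same ETS letters and the second are a capicua octamer (TGAATGAA or TGAATGGA), which no other window of the 7 genes held and which 2.63% of all windows hold. ETV1 has 6 annotated starts, and its windows overlap, so the same ETS site was counted more than once. EGR1 carried 2 CArG boxes, the motif of serum response factor, beginning 105 and 83 bases before the start; 1.29% of all windows hold such a box. The AP-1 letters TGANTCA were present in a window of SPRED2 alone (7.71% of all windows), and the CRE letters TGACGTCA in none (1.85%). SPRY4 and SPRED1 matched no motif in these windows. A match describes the letters only, and the lack of one covers only these windows.

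All 10 genes had a lower mean with the inhibitor, and 7 of them were called lower: SPRY2, SPRY4, SPRED2, PHLDA1, ETV4, ETV5 and IER3 (limma on log2(FPKM + 1), Benjamini-Hochberg adjusted p under 0.05 over 13578 genes). Across all genes tested, 10.0% were called lower and 7.18% higher, and 0 of the 10 were called higher. All 7 called genes had a log2 fold change of −1 or below; 2.91% of genes tested were both called and at −1 or below. In 9 of the 10 genes the 3 inhibitor libraries all lay below the 3 DMSO libraries, a pattern that 26.7% of genes tested showed. The median log2 fold change was −1.14 for the 10 genes and −0.05 for all genes tested. SPRY2 and SPRY4 passed the filter on low values through the DMSO libraries alone, so that they had to differ among the genes kept; without any filter the same count of 7 was called lower, against 2.76% of 31192 genes.

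**Figure D1:**
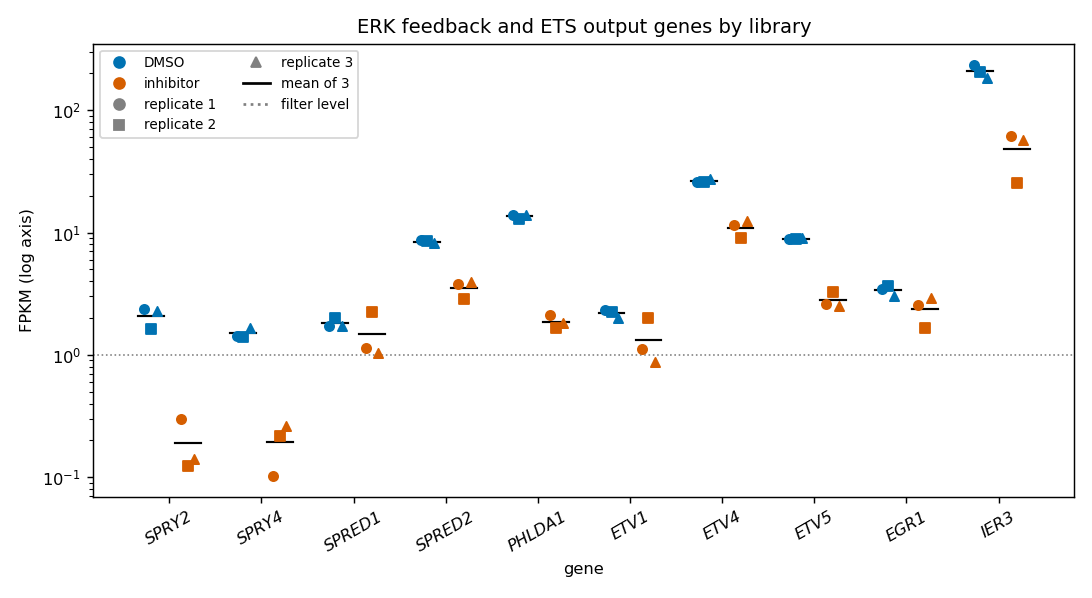
FPKM on a log axis for each of the 10 genes in the 6 libraries, blue for DMSO and orange for the inhibitor, with the replicate number as the symbol, a black bar for the mean of 3 and a dotted line at 1 FPKM, the level of the filter. The groups are apart in every gene but SPRED1, where inhibitor replicate 2 (2.25 FPKM) lies above all DMSO libraries.

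The Sprouty genes had the highest ratios of DMSO mean to inhibitor mean among the 10 genes. SPRY2 (ENSG00000136158, chromosome 13, 80335976 to 80340951, minus strand, hg38) measured 2.38, 1.62 and 2.29 FPKM in the DMSO libraries against 0.301, 0.123 and 0.141 FPKM in the treated ones. The inhibitor libraries were far below every DMSO library, at 15, 5 and 7 reads against 113, 72 and 103. On the log2(FPKM + 1) scale, which understates changes of low values, the fold change was −1.38 (SE 0.16, adjusted p = 0.00492), and on recovered reads (limma-voom) it was −3.47 (SE 0.44, adjusted p = 0.00312). Both fits used the genes kept by the filter, which SPRY2 passed through DMSO alone. In the limma fit without any filter its adjusted p was 0.0171.

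SPRY4 (ENSG00000187678, chromosome 5, 142310427 to 142326455, minus strand) measured 1.43, 1.39 and 1.67 FPKM in the DMSO libraries against 0.102, 0.216 and 0.262 FPKM in the treated ones. Its inhibitor libraries held 11, 19 and 28 reads against 147, 134 and 162 in DMSO, with no overlap. The log2 fold change was −1.07 (SE 0.14, adjusted p = 0.00625), and −3.03 on recovered reads (SE 0.35, adjusted p = 0.00225). SPRY4 also passed the filter through DMSO alone, and in the limma fit without any filter its adjusted p was 0.0173. With a pseudocount of 0.1 in place of 1 the values were −2.96 for SPRY2 and −2.48 for SPRY4, so the size of either fall depends on the scale while its direction did not. The ratio of group means, DMSO over inhibitor, was 11.1 for SPRY2 and 7.74 for SPRY4, followed by 7.30 for PHLDA1. The antisense gene SPRY4-AS1, which overlaps SPRY4, reached 0.112 FPKM at most.

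Of the SPRED genes, SPRED2 was called lower and SPRED1 was not, which does not by itself show that they differed. SPRED2 (ENSG00000198369, chromosome 2, 65310851 to 65432637, minus strand) measured 8.65, 8.51 and 8.16 FPKM in the DMSO libraries against 3.79, 2.86 and 3.94 FPKM in the treated ones. Every inhibitor library was below 4 FPKM and every DMSO library above 8 FPKM. It fell by 1.07 on the log2 scale (SE 0.13, adjusted p = 0.00547). SPRED1 (ENSG00000166068, chromosome 15, 38252326 to 38357249, plus strand), mutated in Legius syndrome, measured 1.71, 1.99 and 1.72 FPKM in the DMSO libraries against 1.14, 2.25 and 1.04 FPKM in the treated ones. Inhibitor replicates 1 and 3 were below all DMSO libraries and replicate 2 above them, and the gene was not called (log2 fold change −0.21, 95% confidence interval −0.70 to 0.28, adjusted p = 0.492). Without inhibitor replicate 2 it was called lower (−0.43, SE 0.11, adjusted p = 0.0298).

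PHLDA1 (ENSG00000139289, chromosome 12, 76025447 to 76033932, minus strand) encodes a protein with a pleckstrin homology-like domain, and its transcript is part of several published MEK inhibitor signatures. It measured 13.8, 12.9 and 13.96 FPKM in the DMSO libraries against 2.12, 1.65 and 1.82 FPKM in the treated ones. The libraries within each group lay close together and the groups were wide apart. Its fall of −2.35 in log2 units (SE 0.11, adjusted p = 0.000662) was the steepest of the 10 on the log2(FPKM + 1) scale, though not on recovered reads (−2.87, against −3.47 for SPRY2 and −3.03 for SPRY4), and ranked 27 from the lowest among the 13578 genes tested.

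The PEA3 factors were led by ETV4 (ENSG00000175832, chromosome 17, 43527844 to 43579620, minus strand), with 25.8, 25.8 and 27.4 FPKM under DMSO against 11.5, 8.99 and 12.3 FPKM under treatment. All inhibitor libraries lay below all DMSO libraries, or −1.21 in log2 units (SE 0.14, adjusted p = 0.00468). The helicase gene DHX8 overlaps ETV4 on the other strand and ranged over 13.5 to 15.2 FPKM under DMSO and over 11.4 to 18.7 FPKM under treatment. Whether counting used strand is not stated in the labels, so reads in the stretch shared by these genes cannot be told apart.

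ETV5 (ENSG00000244405, chromosome 3, 186046308 to 186110318, minus strand) measured 8.84, 8.80 and 8.99 FPKM in the DMSO libraries against 2.597, 3.25 and 2.52 FPKM in the treated ones. The DMSO libraries were almost equal and far above every inhibitor library (ratio of means 3.19). It fell by 1.39 on the log2 scale (SE 0.12, adjusted p = 0.00222). ETV1 (ENSG00000006468, chromosome 7, 13891228 to 13991425, minus strand) measured 2.33, 2.24 and 2.02 FPKM in the DMSO libraries against 1.12, 2.005 and 0.880 FPKM in the treated ones. Its groups did not overlap, but inhibitor replicate 2 came within 0.02 FPKM of the lowest DMSO library, and ETV1 was not called (log2 fold change −0.48, 95% confidence interval −0.95 to −0.01, adjusted p = 0.137). It was called lower without inhibitor replicate 2 (−0.68, SE 0.12, adjusted p = 0.00697) and after a smooth trend on gene length was removed from each library (−0.55, SE 0.15, adjusted p = 0.0436).

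Of the immediate early genes, IER3 was called lower and EGR1 was not; their difference was not tested. IER3 (ENSG00000137331, chromosome 6, 30743199 to 30744554, minus strand), the most abundant of the 10, measured 236, 204 and 184 FPKM in the DMSO libraries against 61.9, 25.3 and 57.5 FPKM in the treated ones. Inhibitor replicate 2 was the lowest library and the groups were far apart. The log2 fold change was −2.18 (SE 0.34, adjusted p = 0.0112) and −1.78 without inhibitor replicate 2 (SE 0.11, adjusted p = 0.000366). Its call was lost when DMSO replicate 1, 2 or 3 was left out (adjusted p = 0.0582, 0.0565 and 0.0515).

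EGR1 (ENSG00000120738, chromosome 5, 138465490 to 138469315, plus strand), a zinc finger transcription factor, measured 3.44, 3.63 and 3.01 FPKM in the DMSO libraries against 2.57, 1.67 and 2.93 FPKM in the treated ones. All inhibitor libraries lay below all DMSO libraries, inhibitor replicate 3 by less than 0.1 FPKM. EGR1 was not called (log2 fold change −0.38, 95% confidence interval −0.80 to 0.03, adjusted p = 0.170), nor was it without inhibitor replicate 2 (−0.22, adjusted p = 0.141).

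**Figure D2:**
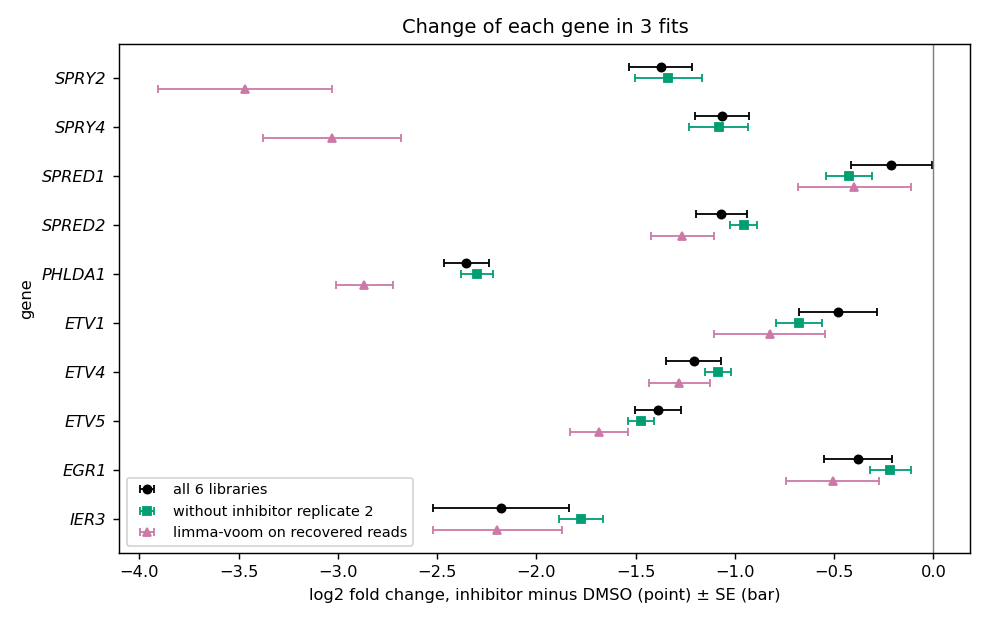
Log2 fold change of each of the 10 genes, inhibitor minus DMSO, with bars of 1 SE, in all 6 libraries (black circles), without inhibitor replicate 2 (green squares), and with limma-voom on recovered reads (pink triangles). All points lie below 0, from −0.21 for SPRED1 to −2.35 for PHLDA1 in the fit of all libraries, and the low-abundance genes SPRY2 and SPRY4 move to −3.47 and −3.03 on recovered reads.

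Without inhibitor replicate 2, 9 of the 10 genes were called lower, EGR1 being the exception; in that fit 23.1% of all genes tested were called lower. Of the 7 called genes, 6 kept their call in each of the 6 leave-one-out fits, with IER3 as the exception. Across all genes tested, the deviation of inhibitor replicate 2 from the mean of replicates 1 and 3 differed between classes of listed gene length. Its median on the log2 scale rose from −0.39 for genes of 1500 to 3000 bases to 0.33 for genes of 8000 bases or more, but was −0.10 for genes under 1500 bases, whose middle 50% ran from −0.76 to 0.52. SPRED1 (8260 bases) and ETV1 (9616 bases) deviated by 0.64 and 0.59, the first above and the second within the middle 50% of their class (0.02 to 0.63). PHLDA1, listed at 8069 bases, deviated by −0.16, below that range. IER3 (1356 bases) deviated by −1.20, below the middle 50% of the shortest class. With the length trend removed, 8 of the 10 genes were called lower, against 10.8% of all genes tested; SPRED1 remained uncalled (−0.24, adjusted p = 0.334).

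**Figure D3:**
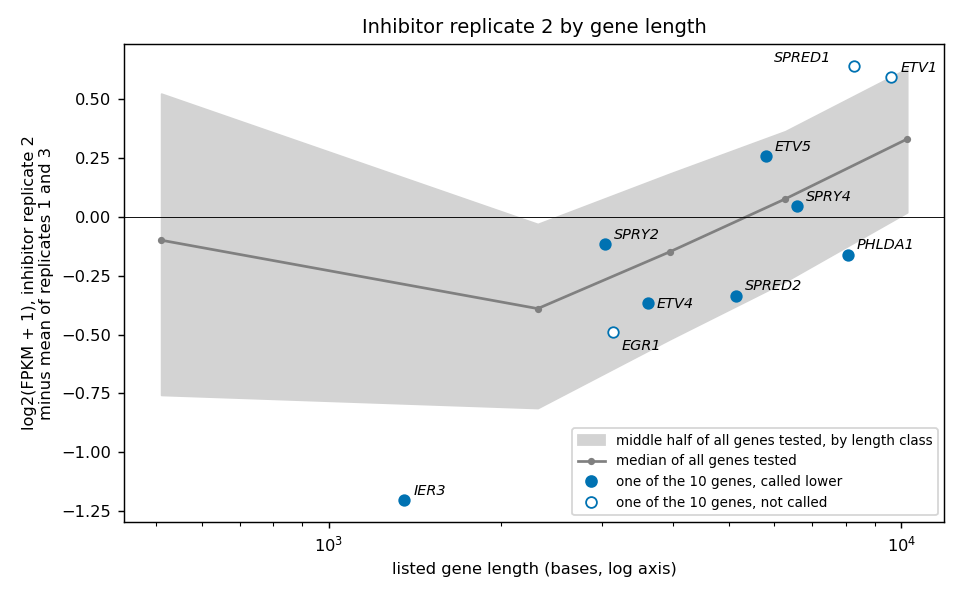
Deviation of inhibitor replicate 2 from the mean of inhibitor replicates 1 and 3, in log2(FPKM + 1), against listed gene length on a log axis. The grey line and band give the median and the middle 50% of all genes tested in 5 length classes, and points are the 10 genes, filled where called lower. SPRED1 and ETV1 lie highest, at 0.64 and 0.59, and IER3 lowest, at −1.20.

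Levels of the 10 genes spanned more than 2 orders of magnitude in DMSO. The order of means ran from IER3 (208 ± 26.5 FPKM, SD, n = 3) through ETV4 (26.4 ± 0.933), PHLDA1 (13.6 ± 0.560), ETV5 (8.88 ± 0.0974), SPRED2 (8.44 ± 0.248), EGR1 (3.36 ± 0.318), ETV1 (2.195 ± 0.163), SPRY2 (2.095 ± 0.415) and SPRED1 (1.81 ± 0.161) to SPRY4 (1.497 ± 0.148). Only the ranges of ETV1 with SPRY2 and of SPRY2 with SPRED1 overlapped their neighbour in that order. With the inhibitor IER3 (48.2 ± 19.95 FPKM) and ETV4 (10.9 ± 1.72) stayed first, PHLDA1 (1.86 ± 0.238) moved from the third place to the sixth, and SPRY4 (0.193 ± 0.0821) and SPRY2 (0.188 ± 0.0981) shared the lowest places with overlapping ranges. From SPRED2 (3.53 ± 0.586) down to ETV1 (1.33 ± 0.593), each gene's range overlapped that of the next.

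Relatives were then compared within each library, as ratios of their FPKM. The ratio of SPRED2 to SPRED1 was 5.05, 4.27 and 4.75 in DMSO and 3.33, 1.27 and 3.79 with the inhibitor, lower in every inhibitor library. The ratio of ETV1 to ETV5 was 0.264, 0.254 and 0.224 in DMSO and 0.430, 0.618 and 0.350 with the inhibitor, higher in every inhibitor library. For both the exact two-sided permutation test gave p = 0.1, the smallest value that 3 against 3 libraries allow (adjusted over 4 ratios, 0.2). In both pairs inhibitor replicate 2, whose values varied with gene length, gave the most extreme ratio. Listed lengths are 5154 bases for SPRED2 against 8260 for SPRED1, and 9616 for ETV1 against 5802 for ETV5. The part of length in these ratios was not tested. The ratio of SPRY4 to SPRY2 ran from 0.602 to 0.861 in DMSO and from 0.339 to 1.85 with the inhibitor (exact permutation p = 0.5). That of ETV4 to ETV5 ran from 2.92 to 3.05 in DMSO and from 2.77 to 4.89 with the inhibitor (exact permutation p = 0.4), so in these pairs the groups overlapped.

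The rest of the pathway was read through 6 lists of genes, without the 10 genes. The lists were chosen by role, but with earlier results of these data known. Among other transcripts widely used as ERK output, 10 of 15 tested were called lower and 0 higher (all genes tested: 10.0% and 7.18%), with a median log2 fold change of −1.02, and 1 of the 15, CXCL8, passed the filter through DMSO alone. The uridine phosphorylase UPP1 went from 15.7 ± 1.86 to 3.99 ± 0.372 FPKM (SD, n = 3 each; −1.74), and the AP-1 subunit FOSL1 from 41.7 ± 3.72 to 9.62 ± 1.87 FPKM (−2.02). The survival factor MCL1 went from 169.9 ± 8.59 to 84.6 ± 2.49 FPKM, and the chemokine CXCL8 from 1.37 ± 0.142 FPKM to 1 read in 1 of the 3 inhibitor libraries. Of the 10 called genes, EPHA2 kept its call in 3 of the 6 leave-one-out fits, AREG in 2 and HBEGF in 1. Of the 5 uncalled genes, MYC, FOS and CCND1 had limma adjusted p = 0.368, 0.106 and 0.0857, and the groups of MYC overlapped. Without inhibitor replicate 2 the count was 13 lower, against 23.1% of all genes tested.

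The list drawn up as negative regulators of RAS and ERK outside the 10 genes gave 5 calls lower and 0 higher among 15 tested (all genes tested: 10.0% and 7.18%), with a median of −0.13. DUSP5 and DUSP4, phosphatases that act on ERK in the nucleus, fell by 2.62 and 2.08 on the log2 scale. SPSB1, an adaptor of a ubiquitin ligase, fell by 0.59, and DUSP7, a cytoplasmic ERK phosphatase, by 0.54. SPSB1 is not an established brake on RAS or ERK, so its call is not read as one. Of the 6 leave-one-out fits, SPSB1 was called in 2 and DUSP7 in 1 (highest adjusted p of 0.0961 and 0.106). LRIG1, which restrains ERBB receptors, completed the 5 (−0.57, called in 1 of the 6 leave-one-out fits). DUSP9, another ERK phosphatase, went the other way, from 26.1, 25.9 and 31.3 FPKM to 70.4, 34.6 and 72.1 FPKM, with no overlap between the groups. It missed the threshold in the fit of all libraries (0.99, SE 0.29, adjusted p = 0.063) but was called higher by limma-voom (1.02, adjusted p = 0.0442), with the length trend removed (1.14, adjusted p = 0.0131) and without inhibitor replicate 2 (1.33, adjusted p = 0.000533). Leaving out inhibitor replicate 2 gave 8 falls and 2 rises among the 15, against 23.1% and 17.5% of all genes tested.

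Transcripts of the cascade itself, from adaptors to the kinases downstream of ERK, gave no call among 20 tested (limma), and their median was 0.06. Of the 20, 7 had an unadjusted p below 0.05, and limma-voom on recovered reads called 2, the RAS activator SOS1 higher (1.32, adjusted p = 0.0303) and the kinase ARAF lower (−0.70, adjusted p = 0.0474). MAP2K2, a MEK kinase, averaged 54.4 ± 4.46 FPKM under DMSO against 59.4 ± 5.01 FPKM under treatment (SD, n = 3 each, a difference of 0.13 in log2, adjusted p = 0.504). The adaptor SHC1 stood at 39.9 ± 0.922 and 36.9 ± 4.05 FPKM (−0.11, adjusted p = 0.532), with a sign that turned under quantile normalization (0.051). Without inhibitor replicate 2, 5 cascade genes were called lower and 3 higher, with a median of −0.02, shares near those of all genes tested in that fit (23.1% and 17.5%).

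Among 14 other ETS factors tested, 2 were called lower and none higher, a share near the 10.0% lower of all genes tested, with a median of −0.21. ETS2 went from 18.2 ± 0.600 to 9.14 ± 1.02 FPKM (SD over 3 libraries a group; −0.92 in log2, adjusted p = 0.00596). ELK1, the partner of serum response factor, went from 23.4 ± 0.995 to 14.9 ± 2.58 FPKM (−0.63, adjusted p = 0.0343), though of the 6 fits lacking 1 library only 1 kept the call of ELK1. Leaving out inhibitor replicate 2 gave 6 falls (all genes tested: 23.1%). Of the relatives of the other genes, 2 of 7 tested were called lower and none higher (median −0.87; all genes tested, 10.0% lower): PHLDA2, a paralogue of PHLDA1, at 164 ± 24.4 and 42.002 ± 18.004 FPKM (−2.04), and the immediate early gene IER5, at 34.9 ± 1.37 and 10.8 ± 4.32 FPKM (−1.69). Each call was lost in 3 of the 6 leave-one-out fits (highest adjusted p of 0.0721 and 0.0703), and without inhibitor replicate 2 the count of falls was 4 (23.1% of all genes tested).

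The list of capicua and of the ligase complex that turns over PEA3 proteins had 1 fall, 1 rise and a median of 0.18 among 6 genes tested, counts near the shares of all genes tested (10.0% lower, 7.18% higher). CIC was higher, with 12.04, 11.6 and 13.6 FPKM under DMSO against 16.1, 18.6 and 18.6 FPKM in treated cells (a change of 0.49 in log2, SE 0.12, adjusted p = 0.0359). Its partner ATXN1L was lower, with 8.25, 8.39 and 8.94 FPKM under DMSO against 6.35, 5.49 and 6.63 FPKM in treated cells (−0.42, SE 0.11, adjusted p = 0.0489). In both genes the groups did not overlap, but just 1 of the 6 leave-one-out fits kept each call (highest adjusted p of 0.155 for CIC and 0.166 for ATXN1L). Without inhibitor replicate 2 the list had 1 fall and 2 rises (all genes tested: 23.1% and 17.5%).

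**Figure D4:**
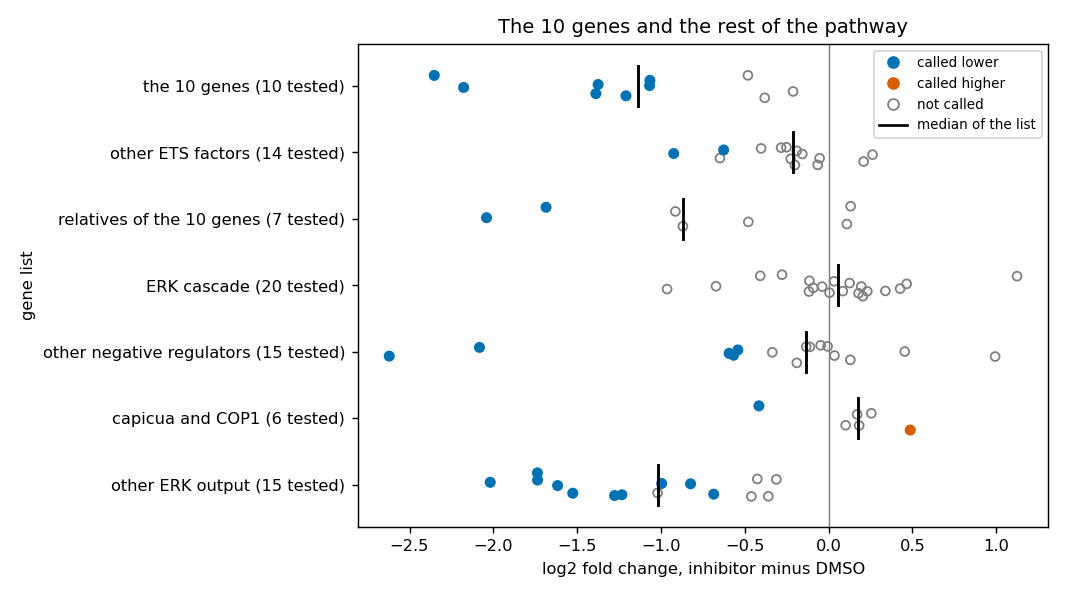
Log2 fold change, inhibitor minus DMSO, of each tested gene among the 10 genes and in the 6 lists, blue where called lower, orange where called higher and open where not called, with a black bar at the median. Medians are −1.14 for the 10 genes, −1.02 for other ERK output and 0.06 for the cascade.

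For each of the 10 genes, the genes with the most similar profile were found as those at the smallest Euclidean distance between centred log2(FPKM + 1) values over the 6 libraries. PHLDA1 lay closest to the chemokine receptor CXCR4 (distance 0.127) and the adhesion molecule ICAM1 (0.163). SPRY2 lay closest to PLPP3 (0.245) and LTF (0.266), and SPRY4 to PLIN2 (0.0875) and TGFBI (0.095). ETV4 lay closest to PSMC4 (0.0794) and NR1D1 (0.0978), and ETV5 to MUC13 (0.158) and RND3 (0.183). SPRED2 lay closest to OTUD3 (0.161) and HSPA6 (0.164), and IER3 to MIR3153 (0.242) and LY6K (0.401). Of the uncalled genes, SPRED1 lay closest to OTUD4 (0.0913) and SERTAD2 (0.103), ETV1 to LIMS1 (0.0904) and AC090181.2 (0.116), and EGR1 to ANXA2P2 (0.0655) and SNRNP35 (0.113). PLPP3 and LTF beside SPRY2, and HSPA6 beside SPRED2, were under 1 FPKM in every inhibitor library. Like SPRY2, they passed the filter through DMSO alone, so among the genes kept they had to be lower with the inhibitor. The pseudocount of 1 shrinks ratios of low values, so close genes need not have like ratios in FPKM. PLIN2, the nearest to SPRY4, measured 12.6, 12.6 and 13.1 FPKM in DMSO against 5.24, 5.82 and 5.87 FPKM with the inhibitor. The ratio of group means, DMSO over inhibitor, was 7.74 for SPRY4. The distances are over 6 libraries in 2 groups and describe these profiles only.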

How the data were processed

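RNA was measured in 6 libraries, 3 per group, grouped and numbered by their titles. The authors deposited 1 table of FPKM values with a listed length for each gene; hg38 was the genome build per the submitters' processing notes, and the library kit was directional, per the labels' protocols. No aligner, counter, annotation or strand setting is given in the sources used here. FPKM times length gave whole reads times 1 factor per library for 100.0% of values above 0 (tolerance 0.01 reads). This factor did not follow from the summed reads alone. It was 74.7 for inhibitor replicate 2 with 14087260 reads, and 68.3 for DMSO replicate 2 with 14201282 reads.

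The 13578 genes reaching 1 FPKM in 3 or more libraries were tested on log2(FPKM + 1), with a pseudocount of 1, by limma 3.58.1 in R 4.3.3 (moderated variances with an intensity trend, two-sided, Benjamini-Hochberg over all genes tested, threshold 0.05). The procedure was tested on simulated counts that took the spread of the DMSO libraries for both groups. They held no outlying library and no length trend, so that test does not cover the behaviour of inhibitor replicate 2. Python 3.11.15 with pandas 2.3.3 and scipy 1.17.1 handled the tables. The 10 genes and the lists were chosen with earlier results of these data known. Named are the 10 genes, PRMT5, the 4 called genes of smallest adjusted p in each list (or, with none, the 2 of highest mean FPKM), and the 2 nearest profiles of each gene. LRIG1, DUSP9, SOS1, ARAF, EPHA2, AREG, HBEGF, MYC, FOS, CCND1 and genes under the filter were named after their values were seen. Alternatives covered pseudocount, filter, scaling, prior, library weights, length trend, replicate block, limma-voom and leaving out each library. No 2 libraries of a group differed by sampling noise alone (chi-square per degree of freedom 2.55 or more).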

Additional observations from a re-analysis of the deposited data

How the results depend on the processing

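The count of the 10 genes called lower was 7 in most settings and 0 were called higher in any of the 20 settings tried. It was 5 with the filter at 5 FPKM, where only 5 of the genes were tested (over all genes, 1059 of 7382 lower). It was 8 with the length trend removed (1468 of 13578) and 10 with estimated library weights (4296 of 13578). It ran from 6 to 9 when 1 library was left out, in fits that called 264 to 3141 of 13578 genes lower. The log2 fold change of each of the 10 genes was below 0 in every setting in which it was tested. The counts over all genes, 1364 lower and 975 higher, were less stable. Leaving out 1 library gave 264 to 3141 lower and 214 to 2372 higher, the most without inhibitor replicate 2; no filter gave 861 lower, the filter at 5 FPKM 446 higher, and library weights 4296 lower and 3401 higher. Of the genes in the 6 lists, 20 were called lower and 1 higher; leaving out 1 library gave 10 to 37 lower and 0 to 7 higher, and library weights 41 lower and 11 higher. Genes of the lists called higher numbered 2 with either other pseudocount, with the filter at 5 FPKM and with TPM, 3 with quantile normalization, with rescaling and with limma-voom, 4 with the length trend removed and 0 with no filter. SHC1 changed sign with quantile normalization (0.051). The cause was not tested.

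Same-numbered libraries deviated together at r = −0.018, 0.157 and 0.248. DMSO replicates 2 and 3 each correlated best with the inhibitor library of the same number, and DMSO replicate 1 with inhibitor replicate 2 (0.0703). Deviations centred within each group of so few libraries cannot decide whether same-numbered libraries were paired. With the replicate block, 7 of the 10 genes were called lower, 872 genes lower and 606 higher over all genes tested, and 0 list genes higher. In the inhibitor libraries SPRY2 and SPRY4 rest on 5 to 28 reads each, which limits the precision of their folds.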

Other observations

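Several close relatives lay under the filter of 1 FPKM. DUSP6, a cytoplasmic phosphatase that inactivates ERK, averaged 0.568 ± 0.127 FPKM under DMSO against 0.0851 ± 0.0285 FPKM under treatment (SD, n = 3 each), from 50, 39 and 30 reads against 4, 6 and 8, and it was called lower in the limma fit without a filter (log2 fold change −0.53, adjusted p = 0.0321). The other EGR genes, EGR2, EGR3 and EGR4, had 15, 21 and 13 reads summed over the DMSO libraries and 3, 2 and 1 over the inhibitor libraries, and none was called in that fit (adjusted p = 0.159, 0.0771 and 0.0508). SPRY1 had 33 reads in DMSO and 7 with the inhibitor (adjusted p = 0.175 in that limma fit). SPRY3 went the other way, with 26 reads in DMSO and 71 with the inhibitor (adjusted p = 0.135), as did SPRED3, with 64 and 101 reads (adjusted p = 0.476). The adaptor GAB1 averaged 0.531 ± 0.041 FPKM under DMSO against 1.14 ± 0.281 FPKM under treatment and did not pass the threshold (adjusted p = 0.146).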
